A study of Peromyscus polionotus with 11 samples.

Results

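Short days were compared with long days in the bed nucleus of the stria terminalis of the oldfield mouse, Peromyscus polionotus. The comparison rests on 5 of the 11 arrays of the study: the 3 described as bed nucleus RNA from long days, numbered 1 to 3, and the 2 described as bed nucleus RNA from short days, numbered 4 and 5. The other 6 arrays hold RNA of the medial preoptic area, 3 from long and 3 from short days. They entered the fit only for its estimate of the spread and for the test of a difference between the nuclei. All RNA came from micropunches, and the labels give no age, sex, genotype or time of day, do not say how long the animals were kept in either day length, and do not say whether punches of several animals were pooled. They also do not tie arrays to animals, so the p-values measure the spread between these samples.

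This nucleus, part of the extended amygdala, is a set of small cell groups in the basal forebrain that carries signals from the amygdala and hippocampus to the hypothalamus and brainstem. Most of its neurons release GABA, many also make neuropeptides, and many respond to sex steroids. It borders the lateral ventricle, the striatum, the septum and the front of the thalamus, so that the edge of a punch can take in those tissues. Day length acts on the brain through the nightly melatonin signal, and in seasonal rodents it shifts reproduction, aggression and the response to oestrogen.

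The values were Affymetrix probe set intensities on a linear scale, each array having a median of 19. The tissue label was checked against markers of bed nucleus GABA neurons, of which 22 were measured. Isl1, a LIM homeodomain factor of ventral forebrain neurons, read 1479 to 2171 on the 5 arrays, the GABA vesicle transporter Slc32a1 528 to 664, the GABA-synthesising enzymes Gad1 and Gad2 256 to 358 and 322 to 423, and the neuropeptide Sst 397 to 714. All of these lay far above the array median. The medial preoptic arrays also read high, at 1767 to 2214 for Isl1, 681 to 920 for Slc32a1 and 261 to 603 for Sst. Gad1 and Gad2 read 297 to 363 and 334 to 418 there, so these markers do not single out the bed nucleus. The probes were designed for the house mouse, and some probe sets of abundant brain genes read at background here, so a low intensity does not show that a gene is off. In these punches fewer cells of a type and less RNA per cell cannot be told apart.

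Of 22626 probe sets, 10 passed between short and long days in the bed nucleus at an adjusted p under 0.05 with limma (Benjamini-Hochberg over all probe sets), which is 0.0442% of those tested. Of these, 4 were higher in short days (0.0177%) and 6 lower (0.0265%). A larger number leaned towards a difference without passing: 2866 probe sets (12.7%) had an unadjusted p under 0.05, of which 1311 were higher and 1555 lower. The same count in the medial preoptic area was 793 (3.50%). A difference between the nuclei in the effect of day length passed for 0 probe sets with limma (smallest adjusted p = 0.238), and 1888 (8.34%) had an unadjusted p under 0.05 for that difference. In the bed nucleus 30 probe sets had an adjusted p under 0.10, 17 higher and 13 lower.

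The genes that fell in short days included a developmental transcription factor, a surface protein of immature neurons, an intermediate filament, a synaptic pentraxin and 2 genes of the Myc network. Lhx2, a LIM homeodomain transcription factor that patterns the forebrain and is kept in some thalamic and hippocampal cells, read 148, 143 and 163 in the long-day samples against 60 and 65 in short days. Its log2 difference was -1.27 ± 0.16 (SE, adjusted p = 0.00415, limma), the smallest adjusted p of all probe sets. The medial preoptic arrays of either day length lay at 35 to 51, closer to the short-day than to the long-day bed nucleus arrays. Cd24a, a glycoprotein on the surface of immature neurons and ependymal cells, read 813, 474 and 857 against 201 and 184, and had the largest difference of the 10 at -1.85 ± 0.27 (adjusted p = 0.0125, limma). It was also the one gene of the 9 named whose groups did not overlap in the medial preoptic area, where long-day arrays read 470, 509 and 259 and short-day arrays 137, 128 and 210, a difference of -1.36 that did not pass. The Cd24a probe set carries the _x_at ending, which marks probes that can also match unrelated transcripts. Its call was lost in 5 of 22 alternative settings, among them a trended and robust prior (adjusted p = 0.0947, limma). The gene's 2 further probe sets were dim and did not pass: one read 21, 17 and 18 against 9 and 10 (-0.97, adjusted p = 0.0606, limma), the other 14, 12 and 15 against 11 and 15 (-0.08).

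Vim, the intermediate filament vimentin of glia, ependyma, vessel walls and progenitors, read 128, 164 and 169 against 71 and 66 (-1.16 ± 0.20). Nptx2, a neuronal pentraxin that gathers AMPA receptors at synapses, read 36, 63 and 58 against 22 and 25 (-1.12 ± 0.19). Mycn, a Myc family transcription factor of growing and dividing cells, read 83, 80 and 83 against 40 and 45 (-0.95 ± 0.17). The adjusted p was 0.0407 for each of the 3 with limma, and in none did the groups overlap. After quantile normalization none of the 3 passed (adjusted p = 0.0798 for Vim, 0.0511 for Nptx2 and 0.0655 for Mycn, limma), and after cyclic loess Vim did not (0.0755) whereas Nptx2 (0.0470) and Mycn (0.0482) did. Mycbp, whose product binds c-Myc, read 265, 264 and 258 against 146 and 157 (-0.79 ± 0.14, adjusted p = 0.0494, limma). Its difference was -0.64 after either normalization and did not pass (adjusted p = 0.107 for both, limma). No bed nucleus array read between 157 and 258 for this Mycbp probe set, while the medial preoptic arrays read 152 to 204. A second Mycbp probe set read 142, 140 and 153 against 98 and 77 (-0.74) and did not pass (adjusted p = 0.0965, limma).

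The 3 named genes that rose encode an immunoglobulin chain, a myeloid membrane protein and a transcription factor of the immune response. Igha, the constant region of the immunoglobulin alpha heavy chain, read 252, 294 and 314 against 700 and 516 in short days (1.07 ± 0.18, adjusted p = 0.0384, limma). Nrros, a membrane protein of microglia and other myeloid cells that holds latent TGF-beta for activation, read 37, 33 and 38 against 61 and 67 (0.83 ± 0.15). Rela, the p65 subunit of the transcription factor NF-kappa-B, read 29, 31 and 31 against 51 and 54 (0.79 ± 0.14, adjusted p = 0.0424 for both, limma). The fourth, a probe set with no gene symbol, read 12, 12 and 17 against 27 and 29 (1.05, adjusted p = 0.0384, limma). The medial preoptic arrays lay between the bed nucleus groups for Rela (36 to 44) and Nrros (39 to 50), and around or above the long-day level for Igha (281 to 411) and the unnamed probe set (16 to 23).

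**Figure D1:**
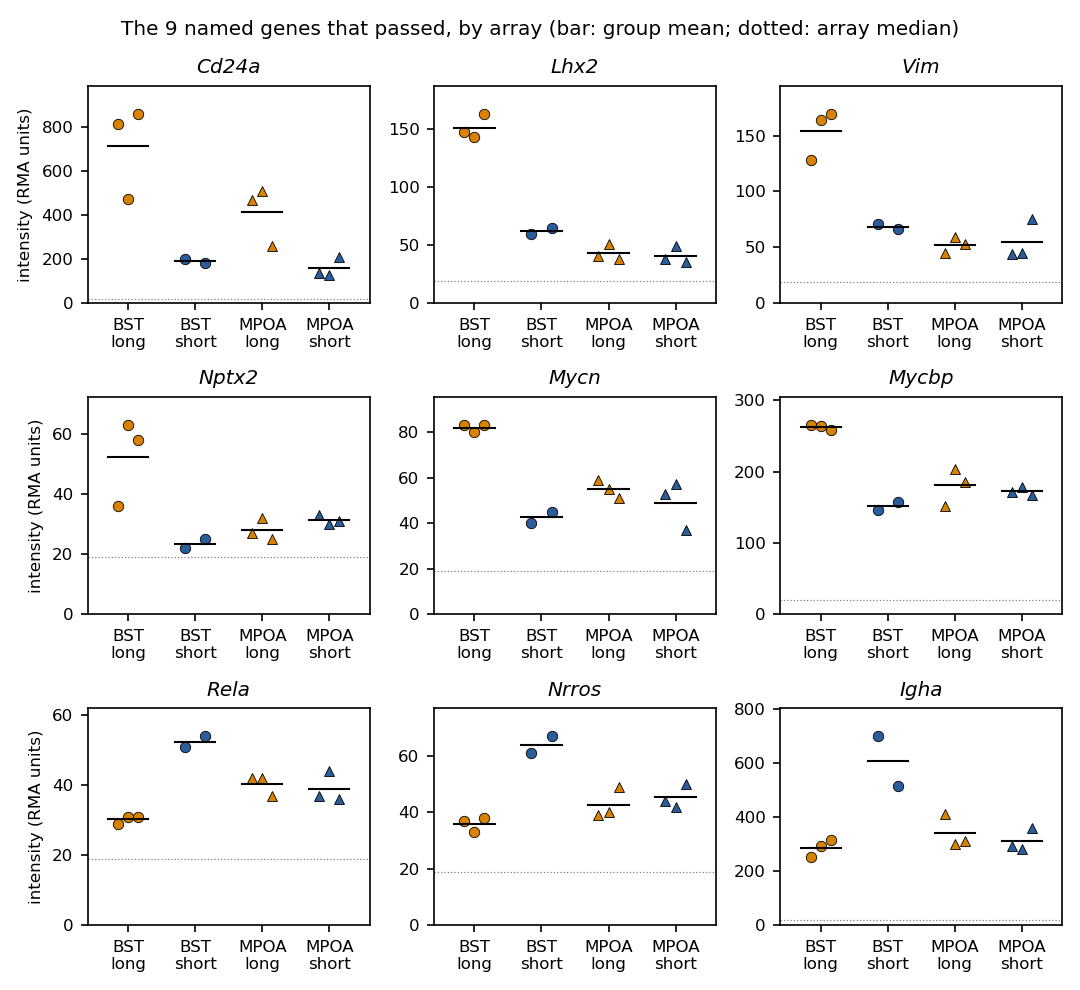
Intensity on each array (RMA units, linear axis from 0) of the 9 named genes that passed between short and long days in the bed nucleus; circles are bed nucleus (BST) arrays, triangles medial preoptic (MPOA) arrays, orange long and blue short days, the bar is the group mean and the dotted line the array median of 19. In each panel both short-day bed nucleus arrays lie outside the range of the 3 long-day arrays, as for Lhx2 at 60 and 65 against 143 to 163, and in the medial preoptic area the groups overlap for 8 of the 9 genes, Cd24a being the exception.

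The difference between the nuclei in the day-length effect did not pass for any of these 9 genes, although the preoptic difference lay between -0.19 and 0.17 on the log2 scale for the 8 other than Cd24a. Subtracting the preoptic effect from that of the bed nucleus gave -1.18 for Lhx2, -1.29 for Nptx2 and 1.20 for Igha (adjusted p = 0.238 for each, limma). It was -0.49 for Cd24a (adjusted p = 0.760, limma). A larger value belonged to Ptgds, an enzyme of prostaglandin synthesis in the meninges, at -2.30 (adjusted p = 0.238, limma). Its bed nucleus readings were 889, 574 and 483 against 451 and 187, a difference of -1.11, and differed by 1.19 in the medial preoptic area.

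The calls leaned on single arrays. Lhx2 and Cd24a passed with any 1 of the 9 other arrays left out, and neither did without a short-day bed nucleus array: the adjusted p of Lhx2 was then 0.0966 without array 4 and 0.0533 without array 5, with log2 differences staying between -1.33 and -1.22. For the other 7 genes the difference kept its sign and stayed between 0.85 and 1.29 for Igha, 0.76 and 0.90 for Nrros, 0.75 and 0.83 for Rela, -1.28 and -1.08 for Vim, -1.37 and -0.96 for Nptx2, -1.03 and -0.87 for Mycn, and -0.85 and -0.74 for Mycbp. Over all probe sets 1 passed without short-day array 4, which was none of the 10, and 0 without array 5. Without the long-day bed nucleus arrays 1, 2 and 3 the count was 16, 2 and 9, of which 4, 2 and 4 were among the 10. Leaving out a preoptic array gave 5, 6 and 2 for the long-day arrays 1, 2 and 3, and 2, 8 and 38 for the short-day arrays 4, 5 and 6. Array 6 stood apart from the other preoptic arrays, and all 10 passed without it. A fit to only the 5 bed nucleus arrays called none (adjusted p of at least 0.334 for the 9 genes, limma).

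The 5 arrays also differed within a day length. Between 2 long-day arrays, 25 to 47 probe sets differed by 1 or more on the log2 scale, and between the short-day arrays 40 did. Between a long-day and a short-day array it was 89 to 158 for the long-day arrays 1 and 2, and 54 and 49 for the long-day array 3. On the first principal component of the 5 arrays (39.6% of the variance), long-day arrays 1, 2 and 3 lay at -19.6, -17.3 and -2.94 and short-day arrays 4 and 5 at 16 and 23.9. The long-day array 3 was thus the nearest to the short-day arrays by both measures.

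**Figure D2:**
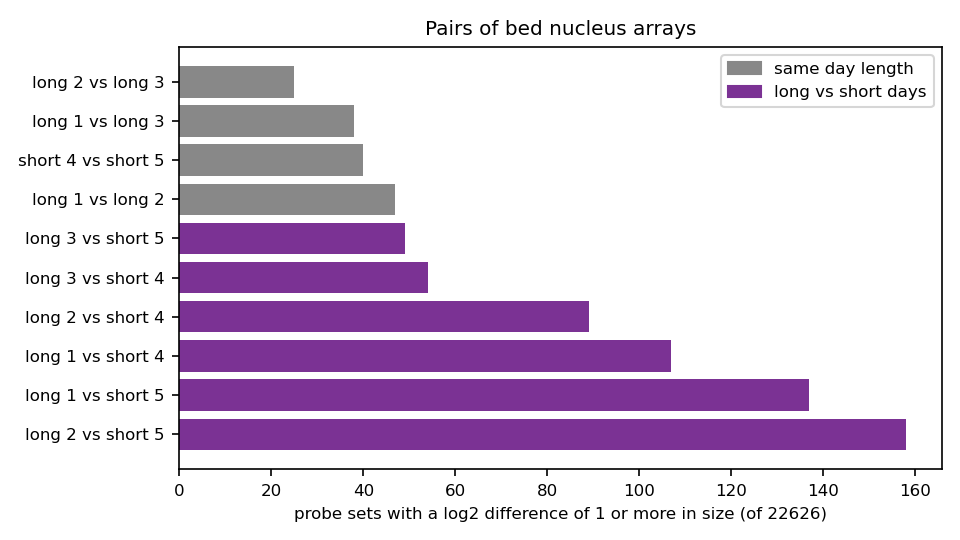
Number of probe sets (of 22626) that differ by 1 or more on the log2 scale between each pair of bed nucleus arrays; grey bars are pairs of the same day length and purple bars long against short days. The 4 pairs of long-day array 1 or 2 with a short-day array reach 89 to 158, against 25 to 47 within the long days, while the pairs of long-day array 3 with the short-day arrays lie at 54 and 49.

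Next to the genes that passed stood 20 probe sets with an adjusted p between 0.05 and 0.10 (limma), none of which is counted as changed. Lower in short days by value were Hmgb2, a chromatin protein of dividing cells (54, 45 and 44 against 22 and 27, -0.96, adjusted p = 0.0540, limma), and Xrcc1, a scaffold of single-strand DNA break repair (23, 22 and 25 against 12 and 15, -0.80). Ube2f, a NEDD8-conjugating enzyme, was at -0.70 and Srpk2, a kinase of splicing factors, at -0.72. Higher by value were Bcl2l11, the pro-apoptotic protein Bim (14, 15 and 21 against 32 and 37, 1.07), and Igfbp4, which binds insulin-like growth factors outside the cell (26, 31 and 36 against 51 and 61, 0.86). Tmem68, a membrane acyltransferase, read 46, 41 and 51 against 76 and 77 (0.74, adjusted p = 0.0606, limma) and passed after quantile normalization (adjusted p = 0.0387), where 7 probe sets did (0.0309%). The cone channel subunit Cngb3 read 11 on each long-day array and 19 on each short-day array (0.79), which is no more than the array median.

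The largest differences among probe sets with an unadjusted p under 0.01 and no overlap between the groups included several that rested on 1 array. Zfp148, a zinc finger transcription factor, read 128, 196 and 141 against 42 and 110 (-1.17), and moved to -0.47 without short-day array 4. Ndufc1, a subunit of respiratory complex I, read 1559 on short-day array 5 and 703 on array 4 against 331 to 570. Cpsf3, the endonuclease of messenger RNA 3′ end processing, read 49 on array 5 and 21 on array 4 against 13 to 17, and was the 1 probe set that passed without array 4. More even were Lrrtm1, a synaptic adhesion protein (673, 592 and 691 against 298 and 403, -0.91, adjusted p = 0.114, limma), and H2-D1, a class I histocompatibility antigen (287, 407 and 489 against 707 and 894, 1.05, adjusted p = 0.106, limma).

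Many genes had more than 1 probe set, which gives a second reading of the same arrays. Of the 504 further probe sets of genes whose brightest probe set had an unadjusted p under 0.01, 278 (55.2%) had the same sign and 56 of these had an unadjusted p under 0.05. Over all genes with 2 or more probe sets the same sign was found for 53.2% of 7987 further probe sets. Vim read lower in short days by its 2 further probe sets, one at 79, 94 and 94 against 54 and 51 (-0.76) and one at -0.49. Hmgb2 had a second at -0.42 (52, 59 and 55 against 37 and 46), and Lrrtm1 one at -0.68 (72, 64 and 68 against 45 and 40). All 9 probe sets of H2-D1 lay above 0, between 0.19 and 1.05, and 3 of the 6 of Igfbp4 lay at 0.60 or more. Of the 9 H2-D1 probe sets, 7 carry the _x_at ending, so their probes can also match other transcripts.

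For other genes the further probe sets did not follow. Igha had 2 more, at 42, 41 and 34 against 41 and 36 and at 47, 38 and 39 against 47 and 36, with differences of -0.02 and 0.00. The brighter further Mycn probe set read 86, 68 and 71 against 72 and 59 (-0.19), and the further Nptx2 probe set 20, 18 and 15 against 18 and 21 (0.15). Lhx2 has a single probe set with its symbol here, as have Nrros and Rela. Among the higher genes, Spint2, a serine protease inhibitor (78, 115 and 140 against 208 and 266, 1.12), Cd99l2, a cell adhesion protein (149, 173 and 209 against 319 and 385, 1.0), Mkrn1, a ubiquitin ligase (1.08), and Acly, the citrate lyase that supplies acetyl-CoA for lipid synthesis (1.0), each rested on an _x_at probe set, as Cd24a did. The further probe sets gave 0.09 for Spint2, -0.11 to 0.04 for Cd99l2, -0.43 to 0.14 for Mkrn1 and -0.40 to 0.07 for Acly.

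Probe sets ending in _x_at made up 6.68% of those tested, 11% of the 318 that lay without overlap at least 0.5 higher in short days, and 4.84% of the 372 that lay as far lower. The 318 and 372 were chosen by these values, so the shares describe them and no test was made. On the medial preoptic arrays, which took no part in choosing them, the short-day array 6 gave the highest of the 6 readings for 43.1% of the 318 and the lowest for 34.7% of the 372. Over all probe sets it did so for 20.3% and 20.7%. Krtap5-1, a hair keratin-associated protein, is an example: it read 281, 321 and 401 against 586 and 655 in the bed nucleus (0.91), and 616 on preoptic array 6 against 319 to 462 on the other preoptic arrays.

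Bright probe sets leaned down in short days as a group. Of the probe sets with a mean intensity over 100 and up to 1000, 36.9% read lower on both short-day arrays than on all long-day arrays and 6.01% read higher, while of those at 13 or less 5.12% read lower and 9.88% higher. The median log2 difference was -0.15 in the first band and 0.04 in the second, and in the medial preoptic area it stayed between -0.01 and 0.01 in all bands. After quantile normalization the bed nucleus bands lay between -0.01 and 0.02. The main lists of bright genes are therefore given on both scales below. Over all probe sets, both short-day arrays lay above all long-day arrays for 10.2% and below for 13.5%. Per gene, counted on its brightest probe set, they lay above for 9.87% of 12393 genes and below for 15.3%, and after quantile normalization for 12.9% and 12.8%.

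**Figure D3:**
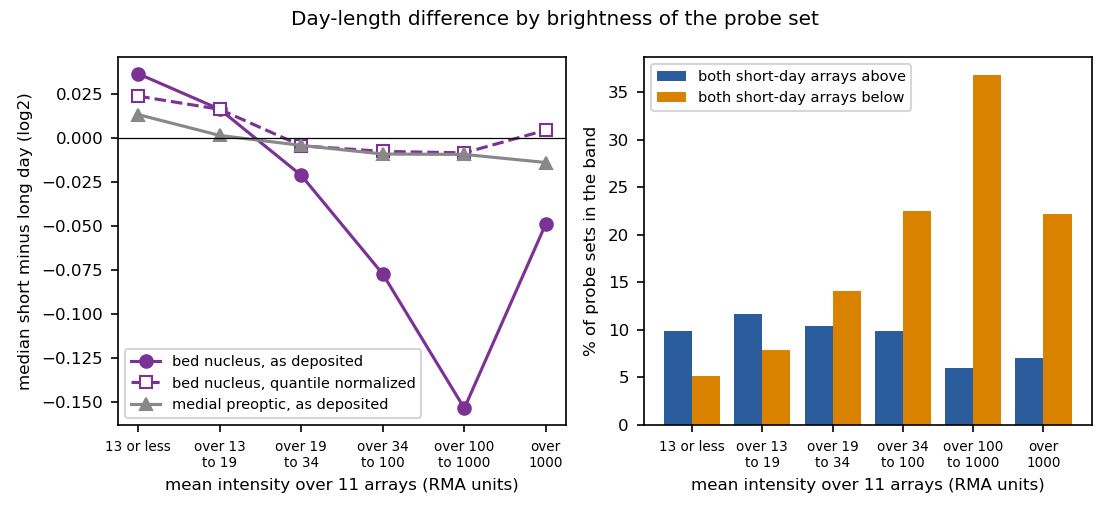
Left, median short minus long day difference (log2) of probe sets in 6 bands of mean intensity, for the bed nucleus as deposited (filled circles), the bed nucleus after quantile normalization (open squares) and the medial preoptic area (triangles); right, the share of probe sets in each band, in percent, with both short-day bed nucleus arrays above (blue) or below (orange) all 3 long-day arrays. The deposited bed nucleus values fall to -0.15 in the band from 100 to 1000, where 36.9% of probe sets lie below, and the other lines stay near 0.

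Markers of thalamic neurons, a tissue next to the bed nucleus, had 16 of 19 measured members lower and 3 higher, with a median log2 difference of -0.23 (-0.24 after quantile normalization) against -0.03 for all genes. Only Lhx2 passed. In 6 members both short-day arrays lay below all long-day arrays (15.3% of all genes lay below so). Among members with a mean intensity over 34 it was 38.5% of 13, against 26.9% of all such genes. An unadjusted p under 0.05 was found for 8 lower members and 1 higher (7.69% and 5.49% of all genes). Ntng1, netrin-G1 of thalamic axons, read 181, 778 and 580 against 176 on both short-day arrays (-1.30, adjusted p = 0.144, limma). Tcf7l2, a Wnt pathway transcription factor of the thalamus and habenula, read 48, 141 and 91 against 42 and 36 (-1.13), and Prkcd, protein kinase C delta, 38, 74 and 64 against 37 and 25 (-0.89). Zic1, a zinc finger factor of thalamus and septum, read 278, 975 and 669 against 168 and 343 (-1.24), and its groups overlapped.

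In several of these markers the long-day array 1 read near the short-day arrays, and the long-day arrays 2 and 3 stood apart. Slc17a6, the vesicular glutamate transporter VGLUT2 of thalamus and hypothalamus, read 11 on long-day array 1, 136 and 63 on arrays 2 and 3, and 29 and 18 in short days. Rora, a nuclear receptor of thalamic neurons and the clock, read 69, 202 and 104 against 83 and 66 (-0.61). Lhx2 did not follow this order, at 148 on long-day array 1. The mean log2 level of the thalamic list was 5.73 on long-day array 1, 6.57 and 6.34 on arrays 2 and 3, and 5.84 and 5.70 on the short-day arrays. The mean level of the striatal list ran the other way within the long days, at 6.56 on array 1 and 6.07 and 6.05 on arrays 2 and 3, with 6.25 and 6.30 on the short-day arrays.

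Without long-day array 1, 16 probe sets of 15 genes passed, 1 probe set higher and 15 lower. The thalamic list, with 19 of the 12393 measured genes, holds 6 of these genes: Lhx2, Ntng1, Zic1, Tcf7l2, Prkcd and Slc17a6. Array 1 was set apart above by the readings of these same markers, so their passing without it is not separate support. The largest differences then belonged to 2 probe sets of Cbln1, the synaptic organiser cerebellin-1, which was named after its values were seen. One read 70 on long-day array 1, 855 and 825 on arrays 2 and 3, and 110 and 51 on the short-day arrays; its difference was -2.29 with all arrays (adjusted p = 0.160, limma) and -3.49 without array 1 (adjusted p = 7.6e-05). Cbln1, Zic1, Ntng1 and Nptx2 also passed the test of a difference between the nuclei in that setting, with 5 probe sets in all. The part of these marker levels in the other differences was not tested.

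**Figure D4:**
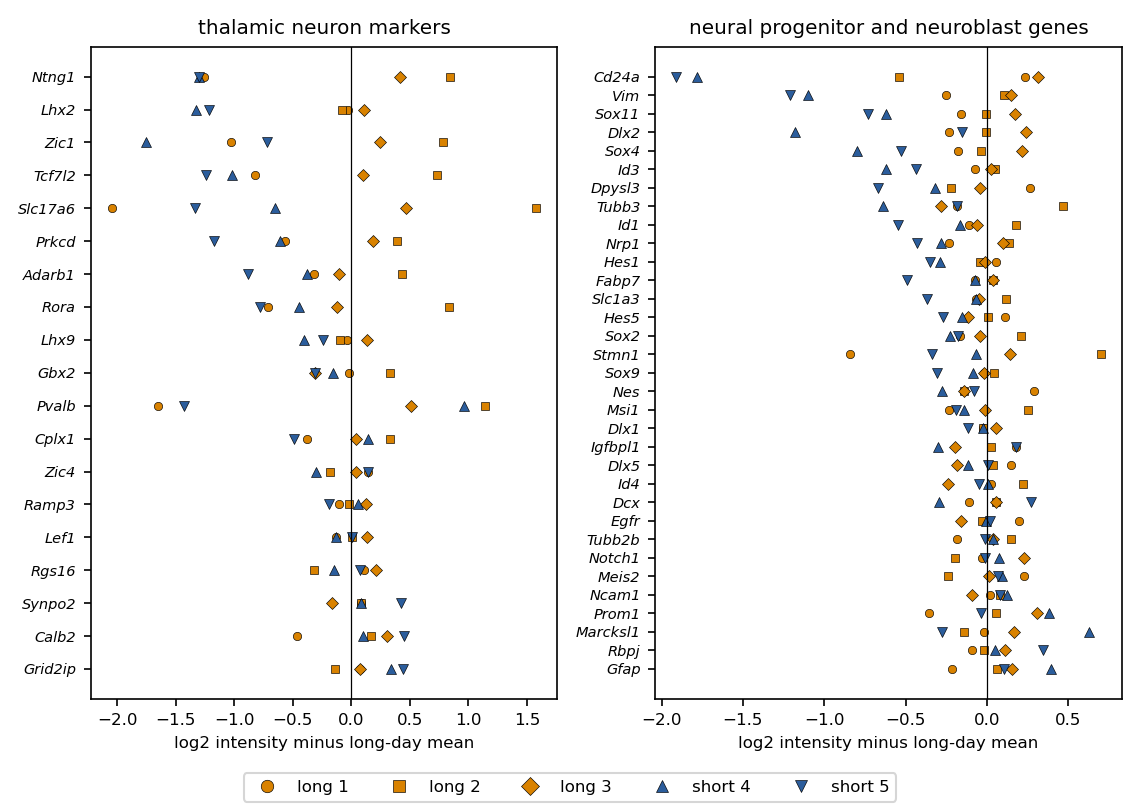
Log2 intensity of each measured marker of thalamic neurons (left) and of each gene of the neural progenitor and neuroblast list (right) on the 5 bed nucleus arrays, minus the mean of its 3 long-day arrays; orange symbols are long-day arrays 1, 2 and 3, blue triangles short-day arrays 4 and 5. For Ntng1, Tcf7l2, Slc17a6 and Rora the circle of long-day array 1 lies left of the squares and diamonds of arrays 2 and 3, on the side of the blue symbols, whereas for Cd24a, Vim, Sox11 and Sox4 all orange symbols lie to the right of the blue ones.

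Genes of neural progenitors and neuroblasts had 24 of 33 measured members lower, 12 of them without overlap between the groups (15.3% of all genes lay below so), and none of the 9 higher members was free of overlap. The list's median was -0.20 as deposited and -0.11 after quantile normalization, where 21 were lower. On that scale 10 lay below and 2 above without overlap (12.8% and 12.9% of all genes). Among members with a mean intensity over 34, 34.8% of 23 lay below without overlap, against 26.9% of all such genes. Cd24a and Vim passed. Sox11, a transcription factor of newly born neurons, read 107, 119 and 135 against 78 and 72 (-0.68, adjusted p = 0.106, limma), and its relative Sox4 read 273, 302 and 359 against 178 and 214 (-0.66). Id3, an inhibitor of basic helix-loop-helix factors, named here after its values were seen, read 54, 59 and 58 against 37 and 42 (-0.53). The members did not fall together: Dcx read 33, 37 and 37 against 29 and 43 (-0.01). Tubb2b was at 0.01, Ncam1 at 0.10 and Gfap at 0.25.

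Long-day array 1 was the lowest of the long-day arrays for the progenitor and neuroblast list too, though it lay above both short-day arrays. The list's mean log2 level was 6.36, 6.47 and 6.45 in long days and 6.19 and 6.16 in short days. Genes of dividing cells had 18 of 28 members lower and none passed. Cdk1, the kinase that drives mitosis, read 39, 32 and 34 against 27 and 19 (-0.62), and Ccnd2, a cyclin of the first growth phase, 182, 176 and 169 against 211 and 242 (0.36). Ependymal markers, which share Cd24a and Vim, had 9 of 11 members lower, and Rsph1 of motile cilia read 28, 34 and 26 against 18 and 21 (-0.58). The other defining ependymal gene Foxj1 read 9 to 12 on all 5 arrays, which is below the array median, so the level of these cells cannot be read from it.

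The Myc network had 21 of 27 measured members lower (median -0.16, -0.10 after quantile normalization), with 9 free of overlap below and 2 above (15.3% and 9.87% of all genes). Over an intensity of 34 the share below was 35.3% of 17 members, against 26.9% of all such genes. Beside Mycn and Mycbp, Mycl, another family member, read 21, 19 and 18 against 15 and 15 (-0.36) and Nop56, a ribosome biogenesis factor and Myc target, 140, 122 and 117 against 93 and 109 (-0.32). Odc1, the ornithine decarboxylase that is also a Myc target, read 65, 91 and 72 against 92 and 99 (0.34). None of these 3 passed. Mycn entered the list counts with its brightest probe set, which is not the one that passed.

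Other LIM homeodomain and LIM-only factors did not pass: the list had 11 of 17 lower and a median of -0.06 (-0.05 after quantile normalization). Lmo1 read 51, 40 and 43 against 35 and 28 (-0.51), Lmo4 109, 122 and 124 against 84 and 104 (-0.34), and Lhx1 20, 35 and 34 against 38 and 41 (0.46). Of the AMPA receptor and pentraxin list, which holds Nptx2, 12 of 16 members were lower (median -0.15, -0.10 after quantile normalization), and all 4 measured receptor subunits failed to pass, with no non-overlapping subunit. The neurons-in-general list had 13 of 16 lower (median -0.24, -0.16 after quantile normalization). Map2, a dendritic microtubule protein, read 90, 83 and 67 against 57 and 48 (-0.60, adjusted p = 0.116, limma). The higher members were Eno2 at 14, 16 and 11 against 23 and 15 (0.46), Syn1 (0.17) and Snap25 (0.14).

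The proteasome, which degrades ubiquitin-tagged proteins, had 23 of 31 measured subunits lower. Without overlap 14 were lower and none higher (15.3% and 9.87% of all genes). All 31 listed genes were measured, with a median intensity of 166. The list's median was -0.21 as deposited but -0.09 after quantile normalization, where 20 were lower. On that scale 7 lay below and 3 above without overlap (12.8% and 12.9% of all genes). Psmb2 of the catalytic core read 150, 141 and 123 against 88 and 98 (-0.57, adjusted p = 0.114, limma), and Psma7 of its outer ring 343, 278 and 321 against 205 and 240 (-0.50). Among genes with a mean intensity over 34, 51.9% of 27 proteasome genes lay lower without overlap, against 26.9% of all 3997 such genes. That comparison does not match brightness: the share was 22.5% of all probe sets from 34 to 100 and 36.9% from 100 to 1000. No subunit passed.

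The respiratory chain had 52 of 70 subunits lower (median -0.13, -0.07 after quantile normalization). Against that direction, Cox6a1 of complex IV read 17, 19 and 20 against 30 and 29 (0.66). Cytosolic ribosomal proteins had 29 of 42 lower with a median of -0.06, and after quantile normalization 15 of 42 with a median of 0.03, so the direction turned with the scaling. Genes of the neuronal cytoskeleton and spine had 24 of 32 lower, with a median of -0.14 as deposited and -0.07 after it.

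**Figure D5:**
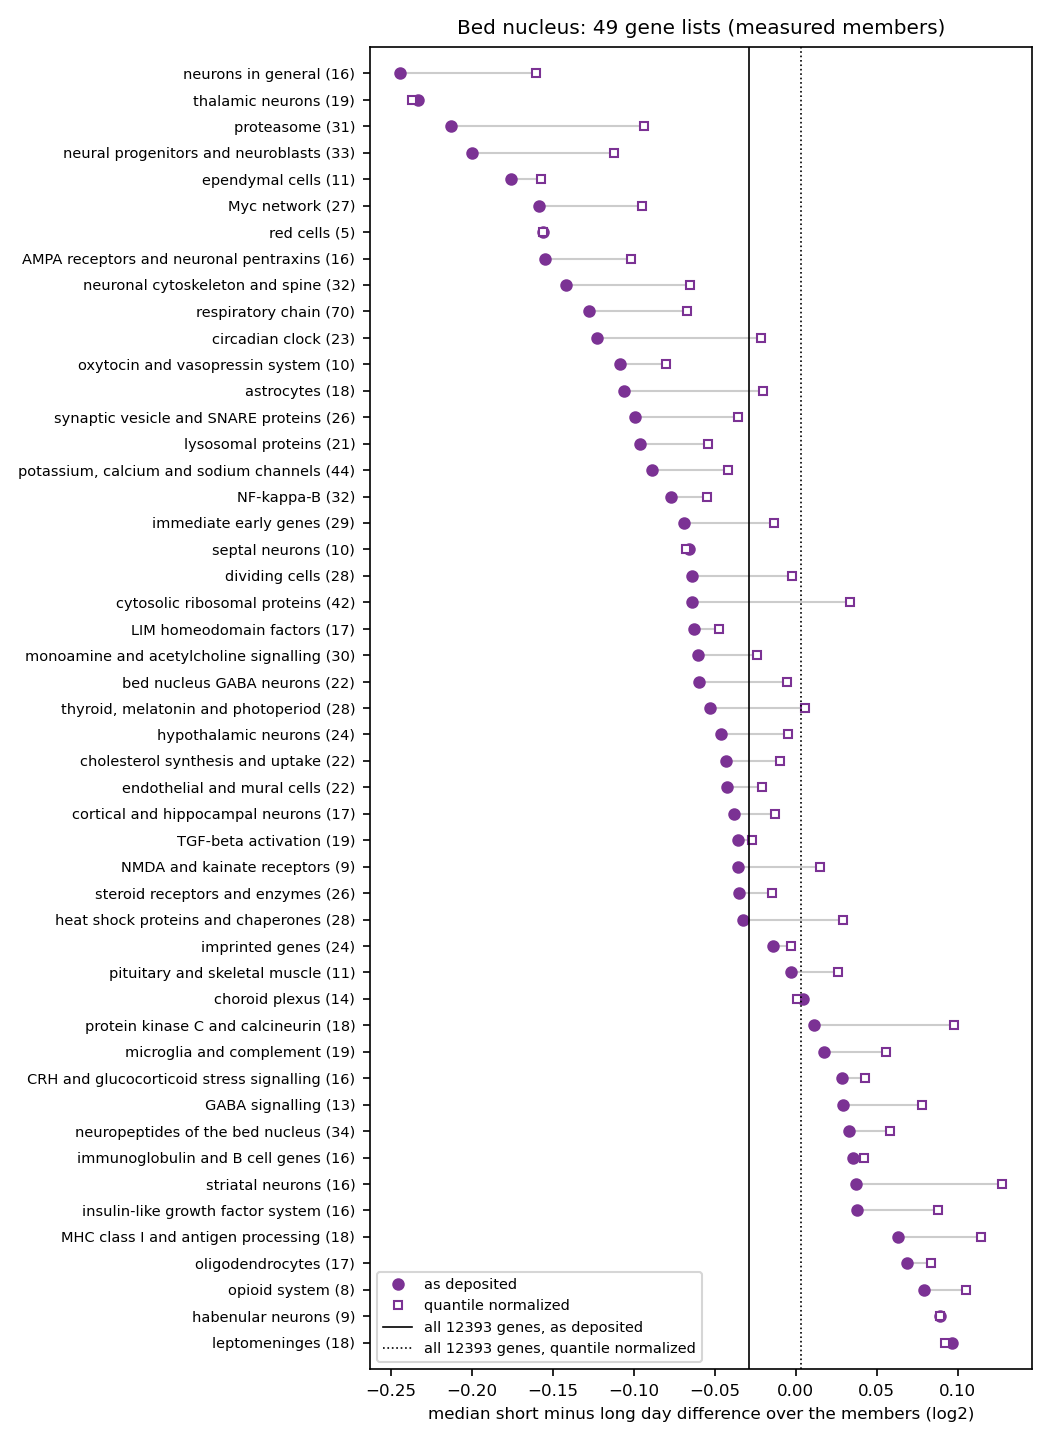
Median short minus long day difference (log2) over the measured members of 49 gene lists in the bed nucleus, as deposited (filled circles) and after quantile normalization (open squares), with the number of measured members in brackets; vertical lines mark the median of all 12393 genes. The thalamic list stays at -0.23 and -0.24 on both scales, the proteasome list moves from -0.21 to -0.09, and the ribosomal list crosses 0.

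On the immune side, the list of immunoglobulin and B cell genes had 8 of 16 members higher. Besides Igha, which passed, 3 B cell genes were higher by value near or under the array median: Cd22 at 11, 11 and 13 against 16 and 15 (0.41), Ms4a1, the surface protein CD20, at 13, 10 and 13 against 16 and 16 (0.43), and Prdm1, a factor of plasma cells, at 18, 22 and 19 against 30 and 23 (0.42). The 6 immunoglobulin genes measured had 4 members lower. Microglia and complement genes had 10 of 19 higher with a median of 0.02, and Nrros was the one member with an unadjusted p under 0.05. Class I histocompatibility and antigen processing genes had 11 of 18 higher (median 0.06).

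Nrros belongs to the TGF-beta list, where 9 of 19 members were higher and 4 of these lay above without overlap (9.87% of all genes, 12.9% after quantile normalization). The 3 besides Nrros were signal carriers of the pathway. Smad4, the common mediator, read 27, 29 and 40 against 46 and 50 (0.61, adjusted p = 0.137, limma), the type II receptor Tgfbr2 25, 21 and 31 against 36 and 39 (0.56) and Smad3, a receptor-activated mediator, 31, 32 and 36 against 49 and 47 (0.54). The list's median was -0.04. The NF-kappa-B list, with Rela, had 12 of 32 higher. Its inhibitors were lower in 5 of 6, among them Nfkbib at 32, 27 and 29 against 26 and 16 (-0.52, and -0.87 to -0.17 with 1 array left out). The anti-apoptotic target Bcl2l1 read 196, 155 and 155 against 134 and 120 (-0.40).

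The list of bed nucleus neuropeptides and their receptors had 20 of 34 members higher and none passed. Most of its receptors were higher by value, while somewhat more of its peptides were lower than higher. Most of the receptors read near or below the array median of 19. All probe sets in that range leaned slightly up, with a median of 0.04 up to an intensity of 13 and 0.02 from 13 to 19. Cck, the peptide cholecystokinin, read 26, 28 and 29 against 14 and 18 (-0.80, adjusted p = 0.106, limma), and Nmb, neuromedin B, 56, 46 and 46 against 29 and 43 (-0.48). The Nmb difference ranged from -0.76 to -0.19 with 1 array left out. Adcyap1, the peptide PACAP linked to stress responses of this nucleus, read 13, 16 and 14 against 19 and 24 (0.58), and the neuropeptide Y receptor Npy1r 11, 12 and 13 against 16 and 16 (0.42). Pnoc, the precursor of nociceptin, read 23, 25 and 18 against 16 and 16 (-0.45), while 6 of the 8 opioid system genes were higher by value. Oxt, oxytocin, read 85, 80 and 77 against 76 and 53 (-0.34), a difference carried by array 5.

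Steroid receptors and enzymes had 11 of 26 members higher. Esr1, oestrogen receptor alpha, read 11, 12 and 9 against 14 and 14 (0.40, adjusted p = 0.312, limma), all under the array median. The 14 other steroid, peptide, thyroid and GABA genes with no unadjusted p under 0.05 that were set to be reported, among them Esr2, Pgr, Avp, Oxtr, Penk, Npy and Gal, had adjusted p-values between 0.511 and 0.971 with limma. In the thyroid, melatonin and photoperiod list 13 of 28 were higher. Thrb, thyroid hormone receptor beta, read 17, 13 and 15 against 20 and 19 (0.39), and Aldh1a1, which makes retinoic acid, 13, 11 and 11 against 15 and 18 (0.50).

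The clock list had 13 of 23 members lower (median -0.12, -0.02 after quantile normalization). Arntl, the activator BMAL1, read 148, 127 and 125 against 102 and 96 (-0.43) and Nr1d1, its repressor REV-ERB alpha, 190, 143 and 164 against 130 and 121 (-0.39). Cry1, a repressor of the activators, read 10, 12 and 12 against 12 and 19 (0.42, and 0.09 to 0.75 with 1 array left out). None passed, and the hour of sampling is not in the labels. Immediate early genes, which mark recent neuronal activity, had 18 of 29 lower, with Jun at 70, 126 and 84 against 61 and 58 (-0.61) and Egr3 at 52, 40 and 35 against 28 and 33 (-0.46).

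Among receptors and channels, GABA signalling genes had 7 of 13 higher, with the receptor subunit Gabra3 at 16, 14 and 14 against 11 and 10 (-0.48). Monoamine and acetylcholine genes had 12 of 30 higher. The serotonin receptor Htr2c read 12, 12 and 13 against 15 and 18 (0.41) and the muscarinic receptor Chrm1 35, 28 and 28 against 24 and 21 (-0.43). Channel genes had 16 of 44 higher, with the calcium channel subunits Cacnb2 at 39, 44 and 34 against 21 and 30 (-0.63) and Cacna2d2 at 75, 92 and 94 against 119 and 116 (0.44). No member of these 3 lists passed, and their medians lay between -0.09 and 0.03.

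Markers of other cell types the punches could hold gave no call besides the genes named above. The striatal list had 9 of 16 higher (median 0.04) and no member with an unadjusted p under 0.05. The leptomeningeal list had 10 of 18 higher (0.10), choroid plexus 7 of 14 (0.00), oligodendrocytes 10 of 17 (0.07), astrocytes 7 of 18 (-0.11, -0.02 after quantile normalization) and endothelial and mural cells 9 of 22 (-0.04). Single members stood out by value: the myelin protein Mobp at 44, 46 and 29 against 26 and 21 (-0.73), the small heat shock protein Cryab of oligodendrocytes and astrocytes at 437, 521 and 440 against 995 and 623 (0.76), and the globin Hba-a2 at 471, 458 and 412 against 331 and 283 (-0.54). Their part in the other differences was not tested.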

How the data were processed

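Per the submitters' processing notes the values were made with RMA version 3.4. The deposited intensities are whole numbers on a linear scale with a median of 19 on every array, so the authors' values had been normalized and rounded; a step of 1 unit at 19 is 0.074 on the log2 scale. After 64 control probe sets were set aside, log2 intensities of 22626 probe sets were fitted with 4 group means over all 11 arrays (lmFit and eBayes of limma 3.58.1, R 4.3.3; 7 residual and 12.9 prior degrees of freedom), two-sided. The number of arrays limits the precision. Gene symbols came from the platform annotation, and only probe sets with 1 symbol were named (20380, of 12393 genes). Lists took the brightest probe set of a gene. Named were all genes that passed, the next by p up to 30, the 12 largest non-overlapping differences each way with an unadjusted p under 0.01, up to 4 members of each list with an unadjusted p under 0.05, and 20 further genes for steroids, peptides and day length; the text describes a selection. Members, the 49 lists and tests were chosen with earlier results of these data known. The fit was tested on simulated data. Some genes are not reported here. No probe or promoter sequences were used here.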

Additional observations from a re-analysis of the deposited data

How the results depend on the processing

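The number of probe sets that passed in the bed nucleus, 10 with the main setting, was 7 after quantile normalization, 10 after median centring, with dim probe sets left out, with a trended and robust prior and with 1 probe set per gene, 11 with array weights, 13 with noise that undoes the rounding, 6 with a pseudocount of 16, 30 at a threshold of 0.10 and 0 with the bed nucleus arrays alone. Leaving out each array gave 0 to 38, and the cause of these shifts was not tested. A block on the sample number, which links the nuclei and not the 2 day lengths, gave 10 at an estimated correlation of 0.00786; the numbers were not taken to pair animals. Cyclic loess normalization gave 11 and leaving out _x_at and _s_at probe sets 10; both were chosen after seeing the data. For the difference between the nuclei, 0 passed in each setting except without the long-day bed nucleus array 1, where 5 did (0 to 5 with each array left out). Probe sets free of overlap numbered 5363, 3372 with dim ones left out and 3122 with 1 per gene, where fewer were counted, and 7332 to 11205 without 1 bed nucleus array. Of 2647 gene values under alternatives none changed sign. Of 882 list medians under alternatives, 33 moved by more than the spread between arrays. Some list medians near 0 changed sign. This was so in 7 of 18 settings for pituitary and skeletal muscle, 5 for choroid plexus, and 4 each for TGF-beta and for microglia and complement. The medians of the thalamic, progenitor and neuroblast, Myc network and proteasome lists changed sign in 0 of 18. With 1 short-day array left, that array is assumed to vary like the others. Low intensities, near the median of 19, limit most values in this study.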
